A study of Mus musculus with 6 samples.

Results

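Apc, the scaffold that holds beta-catenin for degradation, was examined in liver tumors of mice together with Ctnnb1, the gene of beta-catenin, and 8 genes that beta-catenin is known to switch on in the liver: Axin2, Nkd1, Rnf43, Lgr5, Tbx3, Glul, Oat and Lect2. These 10 genes, of 34745 in the table, were picked by symbol, to ask whether a lower level of Apc in tumors of Prmt3LKO mice goes with higher levels of the Wnt target genes. The lower Apc level of these same tumors was known when the genes were picked, so the difference of each of the 10 genes between the groups is given as a description with its standard error and with no test. All 10 genes passed the filter on low counts, as did 13892 genes in all.

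RNA was sequenced from 3 tumors of Prmt3f/f mice, which carry floxed Prmt3 without Cre, and from 3 tumors of Prmt3LKO mice, which carry the same floxed gene and the albumin-Cre transgene. Albumin is made by hepatocytes, so the deletion is aimed at hepatocytes and the other cells of a tumor keep Prmt3, the gene of an arginine methyltransferase. Mice of both groups had received the carcinogen DEN (25 mg/kg) when 2 weeks old and then the liver toxin CCl4, as a 10% solution at 0.5 ml/kg, from 6 weeks, and were killed at 26 weeks, so no untreated liver stands beside the tumors here. The sources do not say whether the 3 tumors of a group came from separate mice, and a p-value then measures only the spread between these tumors.

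In a cell that receives no Wnt signal, a complex of Apc, Axin and the kinases GSK3 and CK1 marks beta-catenin for degradation. Wnt ligands, helped by R-spondins and their Lgr receptors, stop this complex, and beta-catenin then enters the nucleus and acts with TCF and LEF factors on its target genes. In the liver the pathway is active in hepatocytes around the central vein, the pericentral zone, where it keeps genes such as Glul on, and activating changes of it are frequent in liver cancer.

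Total counts ranged from 18440244 to 27976598 reads per tumor. Values are given as CPM, the counts of a gene per 1000000 counts of the TMM-scaled library, and taking 3 reads as the limit behind a count of 0, a gene with no read may lie at up to 0.105 CPM in the deepest and 0.171 CPM in the shallowest library, counting error only. Prmt3, the targeted gene, stood at 6.60, 8.48 and 10.2 CPM in Prmt3f/f replicates 7, 66 and 71 and at 2.80, 2.03 and 3.82 CPM in Prmt3LKO replicates 92, 93 and 94, and these groups did not overlap. The 8 hepatocyte markers, with Alb at their head, summed to between 139931 and 203106 CPM in every tumor, as the label of a liver tumor implies. With edgeR's quasi-likelihood test, 0 of 13892 genes passed an adjusted p under 0.05, and at an unadjusted p under 0.05 there were 912 genes (6.56%), of which 607 (4.37%) were lower and 305 (2.2%) higher in Prmt3LKO tumors. At an adjusted p under 0.05 and a change of at least 2-fold, DESeq2 called 43 genes lower and 9 higher, and the exact test of edgeR called 35 lower and 5 higher.

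The letters that TCF and LEF factors are known to read, CTTTGA, were sought on both strands in the promoter windows of RefSeq (GRCm38.p6, 250 bases before to 50 bases after each start). Windows were at hand for 7 of the 10 genes, with 1 window each for Axin2, Nkd1, Glul, Oat and Lect2 and 2 each for Ctnnb1 and Rnf43; Apc, Lgr5 and Tbx3 had no entry. Lect2 alone among the 7 genes held the letters, beside 18.2% of all 27025 genes and 16.0% of all 32851 windows. Its match also extends to the longer CTTTGAT, which contains CTTTGA and occurs in 4.29% of genes and 3.73% of windows. The 250 bases before the start of Lect2 are shown because they carry this match, which lies on the opposite strand and begins 31 bases before the start, and those of Axin2 and Glul are shown as targets with no match in the same window; capitals mark the match, written as read on the strand of the gene. The windows are chr13:56548539-56548788 on the minus strand for Lect2, chr11:108920099-108920348 on the plus strand for Axin2 and chr1:153899679-153899928 on the plus strand for Glul, each written from 5′ to 3′.
Lect2: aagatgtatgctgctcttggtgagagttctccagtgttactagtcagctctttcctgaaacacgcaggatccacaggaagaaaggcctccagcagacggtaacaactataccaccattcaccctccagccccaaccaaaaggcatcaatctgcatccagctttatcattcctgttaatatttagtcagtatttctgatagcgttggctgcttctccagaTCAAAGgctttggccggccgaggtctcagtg
Axin2: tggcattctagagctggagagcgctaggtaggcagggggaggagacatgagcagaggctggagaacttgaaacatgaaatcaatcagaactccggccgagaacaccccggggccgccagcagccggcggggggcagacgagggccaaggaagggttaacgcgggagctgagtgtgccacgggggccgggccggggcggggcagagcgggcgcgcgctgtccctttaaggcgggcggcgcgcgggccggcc
Glul: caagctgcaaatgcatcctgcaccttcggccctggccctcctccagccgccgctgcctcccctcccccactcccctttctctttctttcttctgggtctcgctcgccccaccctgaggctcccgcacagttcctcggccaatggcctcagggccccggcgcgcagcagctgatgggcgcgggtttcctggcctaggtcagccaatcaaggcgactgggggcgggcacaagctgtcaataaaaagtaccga
A match describes letters and not a site that is bound, and a window without one says only that these letters are not in these bases.

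Apc (ENSMUSG00000005871, chromosome 18, 34220924 to 34322189, plus strand of GRCm38) was lower in the Prmt3LKO tumors. It stood at 32.4, 41.5 and 42.9 CPM in Prmt3f/f replicates 7, 66 and 71, from 702, 890 and 1221 reads, and at 14.0, 14.7 and 10.5 CPM in Prmt3LKO replicates 92, 93 and 94, from 246, 325 and 209 reads. Every Prmt3LKO tumor lay below every Prmt3f/f tumor. The mean was 38.9 ± 5.71 CPM (SD, n = 3) in Prmt3f/f and 13.1 ± 2.25 CPM (SD, n = 3) in Prmt3LKO tumors, which is 33.6% of the former, and the log2 fold change was -1.57 with a standard error of 0.19. Groups that did not overlap, with Prmt3LKO lower, were found in 6.59% of all genes tested, and Apc was the 1 gene of the 10 with this pattern. In tumor tissue, fewer cells of a type and less RNA per cell cannot be told apart.

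Ctnnb1 (chromosome 9, 120929216 to 120960507, plus strand) encodes the protein that Apc holds in check. Its level was 203, 287 and 253 CPM in Prmt3f/f tumors and 291, 329.9 and 259 CPM in Prmt3LKO tumors. The groups overlapped, since Prmt3LKO replicate 94 lay below Prmt3f/f replicate 66. The Prmt3LKO mean was 118% of the Prmt3f/f mean, a log2 fold change of 0.24 with a standard error of 0.19. RNA of Ctnnb1 does not report the amount of beta-catenin protein, which the complex controls after translation and which was not measured here.

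**Figure D1:**
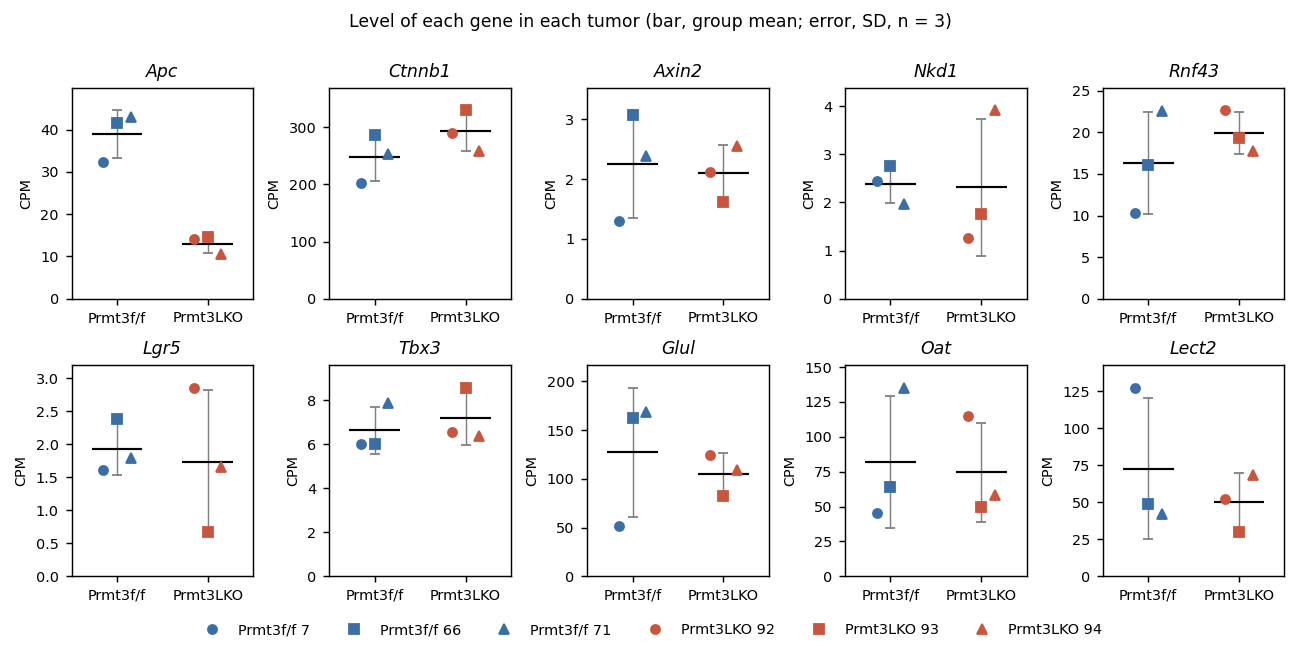
Level of each of the 10 genes in CPM (y axis, from 0, a scale of its own for each gene) in the 3 Prmt3f/f and the 3 Prmt3LKO tumors; symbols mark the tumors, bars the group mean and error bars the SD. Apc is the 1 gene whose groups are apart, at 32.4 to 42.9 CPM against 10.5 to 14.7 CPM.

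The 8 target genes lay on both sides of 0. Their log2 fold changes ran from -0.54 for Lect2 to 0.28 for Rnf43, with 6 below 0 and 2 above 0 and a median of -0.12, beside a median of 0.00043 over all genes tested. None of the 8 had groups that did not overlap, in either direction, where 5.57% of all genes were higher and 6.59% lower in Prmt3LKO tumors without overlap. The standard errors ran from 0.21 to 0.51, and no test was made of these 8 genes. Leaving out Prmt3f/f replicate 66 or Prmt3LKO replicate 93 turned the median above 0, and over the 6 tumors left out in turn it ran from -0.26 to 0.073.

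Axin2, Nkd1, Rnf43 and Lgr5 act on the pathway itself, and their median log2 fold change was -0.073. Axin2 (chromosome 11, 108920349 to 108950783), a scaffold of the same complex as Apc and a widely used readout of the pathway, stood at 1.29, 3.08 and 2.39 CPM in Prmt3f/f and at 2.11, 1.62 and 2.56 CPM in Prmt3LKO tumors. The lowest and the highest of the 6 values were both in the Prmt3f/f group. With 28 to 68 reads per tumor the log2 fold change was -0.10 with a standard error of 0.39.

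Nkd1 (chromosome 8, 88521344 to 88594887), an inhibitor that binds Dishevelled, was at 2.44, 2.75 and 1.97 CPM in Prmt3f/f and at 1.26, 1.76 and 3.92 CPM in Prmt3LKO tumors. The 3 Prmt3LKO tumors enclosed the Prmt3f/f tumors, and Prmt3LKO replicate 94 was highest of all. The log2 fold change of -0.04 (standard error 0.44) became -0.65 without this tumor. It turned above 0 without Prmt3f/f replicate 66, Prmt3LKO replicate 92 or Prmt3LKO replicate 93.

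Rnf43 (chromosome 11, 87662722 to 87735539), a ubiquitin ligase that removes Wnt receptors from the cell surface, was at 10.3, 16.1 and 22.6 CPM in Prmt3f/f and at 22.7, 19.3 and 17.7 CPM in Prmt3LKO tumors. The Prmt3LKO tumors lay close together, within the wider range of the Prmt3f/f tumors but for replicate 92, which passed its top by a small margin. The Prmt3LKO mean was 122% of the Prmt3f/f mean (log2 fold change 0.28, standard error 0.28). Lgr5 (chromosome 10, 115450311 to 115587780, minus strand), a receptor for R-spondins, was the most thinly covered, with 15 to 51 reads per tumor, and stood at 1.61, 2.38 and 1.79 CPM in Prmt3f/f and at 2.86, 0.676 and 1.66 CPM in Prmt3LKO tumors. Both ends of its range were Prmt3LKO tumors, and the log2 fold change was -0.17 with a standard error of 0.51.

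Tbx3, Glul, Oat and Lect2 are read as signs of active beta-catenin in hepatocytes. Tbx3 (chromosome 5, 119670669 to 119684724), a transcription factor, varied least of the 8, at 6.00, 6.01 and 7.87 CPM in Prmt3f/f and 6.57, 8.57 and 6.38 CPM in Prmt3LKO tumors, a log2 fold change of 0.11 with a standard error of 0.21. Glul (chromosome 1, 153899944 to 153909723), glutamine synthetase, is the standard marker of pericentral hepatocytes and of liver tumors with active beta-catenin. It stood at 51.1, 162 and 169 CPM in Prmt3f/f and at 125, 82.0 and 109 CPM in Prmt3LKO tumors. The 3 Prmt3LKO tumors fell inside the range of the Prmt3f/f tumors, whose replicate 7 was lowest, and the log2 fold change was -0.27 with a standard error of 0.42.

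Oat (chromosome 7, 132557475 to 132576398, minus strand), ornithine aminotransferase, was at 45.6, 64.0 and 135 CPM in Prmt3f/f and at 115, 49.6 and 58.6 CPM in Prmt3LKO tumors. A single tumor of each group, Prmt3f/f replicate 71 and Prmt3LKO replicate 92, stood well above the other two. The log2 fold change was -0.13 with a standard error of 0.46, and it turned above 0 without Prmt3f/f replicate 71, Prmt3LKO replicate 93 or Prmt3LKO replicate 94. Lect2 (chromosome 13, 56542460 to 56548538, minus strand), a secreted protein of hepatocytes, was at 127, 48.7 and 42.1 CPM in Prmt3f/f and at 52.1, 29.9 and 68.4 CPM in Prmt3LKO tumors. Its log2 fold change of -0.54 (standard error 0.47), the lowest of the 8, rested on Prmt3f/f replicate 7 and was 0.14 without that tumor.

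Some of these genes share positions with others in the GENCODE M21 annotation, and whether the counting used strand is not given in the sources used here. Oat lies within the bounds of Fgfr2, on the same strand and with 12496 reads over the 6 tumors. Rnf43 holds 1110028F11Rik with 219 reads on its own strand, and Tbx3 faces Tbx3os1 with 60 reads on the other strand. Apc faces the pseudogene Gm10548, with 12 reads over all 6 tumors, a small part of its own count.

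Levels between genes were compared per length, by FPKM, the deposited reads per kilobase of gene after division by the total of the tumor. The mean over the 6 tumors was 70.3 FPKM for Lect2, 36.0 for Oat, 31.2 for Glul and 27.6 for Ctnnb1. These 4 overlapped from 1 gene to the next, and the lowest of their values, 14.2 FPKM for Glul in Prmt3f/f replicate 7, was far above every value of the other 6 genes. Rnf43 followed at 1.63 FPKM, Apc at 0.962, Nkd1 at 0.527 and Tbx3 at 0.499, again with overlap between neighbours, and then Axin2 at 0.252 and Lgr5 at 0.136 FPKM, which overlapped with each other but not with Tbx3. Apc was at 1.23, 1.49 and 1.61 FPKM in Prmt3f/f tumors and so near Rnf43, and at 0.492, 0.563 and 0.382 FPKM in Prmt3LKO tumors and so near Nkd1 and Tbx3.

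The order within these blocks depended on the length. The length behind the FPKM of Apc was 27.1 kb and that of its longest annotated transcript 12.8 kb, and for Ctnnb1 these were 9.81 and 3.62 kb, while for Oat both were 2.15 kb. By CPM per kilobase of merged exons, Ctnnb1 moved from place 4 to place 2 with 52.1, Oat from place 2 to place 4 with 33.1, and Tbx3 passed Nkd1 with 1.04 against 0.515. Differences between tumors of 1 gene do not depend on this length.

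**Figure D2:**
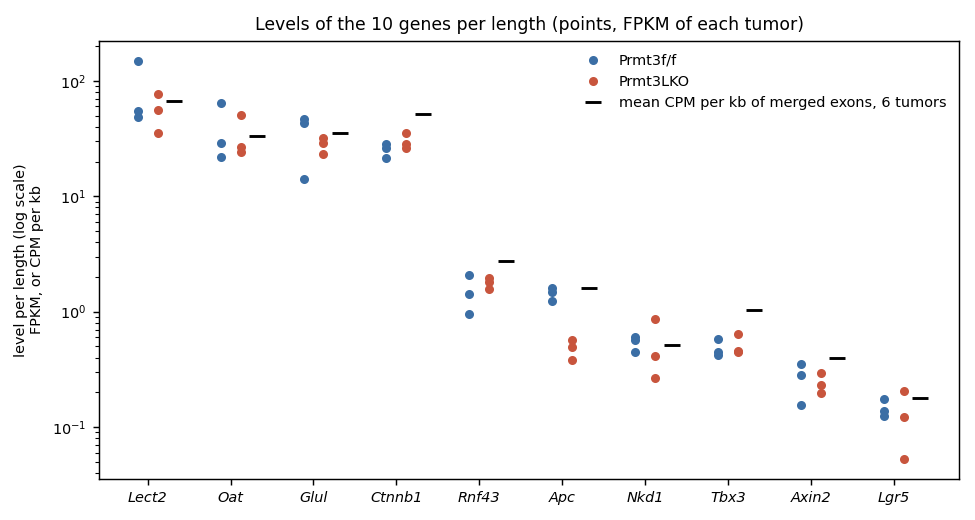
Level per length of the 10 genes on a log scale, with 1 point for each tumor in FPKM (blue, Prmt3f/f; red, Prmt3LKO) and a bar for the mean CPM per kilobase of merged exons over the 6 tumors. Lect2, Oat, Glul and Ctnnb1 form the upper block, Axin2 and Lgr5 lie lowest, and the 2 groups of Apc are apart.

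The targets differed in how much they varied between tumors of 1 group. The SD of log2 CPM within groups was 0.75 for Lect2, 0.73 for Oat and 0.73 for Glul, which placed them at percentiles 97.0, 96.5 and 95.7 among the genes within 2-fold of their own level, where the median SD was 0.21 to 0.22. Lgr5 had a like SD of 0.72 but was at percentile 78.6 among genes of its lower level. Nkd1, at 0.60, was at percentile 73.3, Axin2, at 0.49, at 58.5 and Rnf43, at 0.42, at 85.7. Tbx3, at 0.23, was at percentile 36.0 and Ctnnb1, at 0.22, at percentile 37.9. Apc had an SD of 0.24, at percentile 59.97. On log2 of FPKM with a pseudocount of 1, which compresses low levels, Lect2, Oat and Glul were at percentiles 97.7, 96.6 and 95.6, while Apc moved to percentile 18.6.

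The spread had a pattern over tumors. Prmt3f/f replicate 7 was lowest of its group for Apc, Ctnnb1, Axin2, Rnf43, Lgr5, Glul, Oat and, by a small margin, Tbx3, and highest for Lect2, and Prmt3LKO replicate 93 was lowest of its group for Axin2, Lgr5, Glul, Oat and Lect2 but highest for Apc, Ctnnb1 and Tbx3. The same 2 tumors were low in hepatocyte zone genes that are none of the 10. Cyp2e1, a pericentral enzyme of the cytochrome P450 family, was at 166 CPM in Prmt3f/f replicate 7 and 244 CPM in Prmt3LKO replicate 93, and between 1056 and 1329 CPM in the other 4 tumors.

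The mean log2 CPM of 16 pericentral genes was 4.99, 5.54 and 6.10 in Prmt3f/f and 5.85, 4.75 and 6.28 in Prmt3LKO tumors, and that of 18 periportal genes, of the zone where Wnt signals are weak, was 7.45, 7.87 and 8.57 in Prmt3f/f and 8.22, 7.20 and 8.50 in Prmt3LKO tumors. Both zones were therefore lowest in the same 2 tumors. The pericentral minus the periportal mean was -2.42 ± 0.078 (SD, n = 3) in Prmt3f/f and -2.35 ± 0.12 (SD, n = 3) in Prmt3LKO tumors, a difference of 0.073 on the log2 scale with p = 0.5 in an exact two-sided permutation test, whose smallest p for 3 against 3 is 0.1. Markers of cholangiocytes summed to 4100 CPM in Prmt3f/f replicate 7, nearly all of it Spp1, and to between 207 and 1015 CPM in the other tumors. In a further fit Prmt3f/f replicate 7 and Prmt3LKO replicate 93 were both left out, a choice made after the data were seen. The log2 fold change was then -1.78 for Apc and 0.42 for Lect2, and the median of the 8 targets was -0.014. For Apc these were the lowest Prmt3f/f and the highest Prmt3LKO tumor, and for Lect2 the reverse. Leaving them out could therefore only lower the value of Apc and raise that of Lect2.

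**Figure D3:**
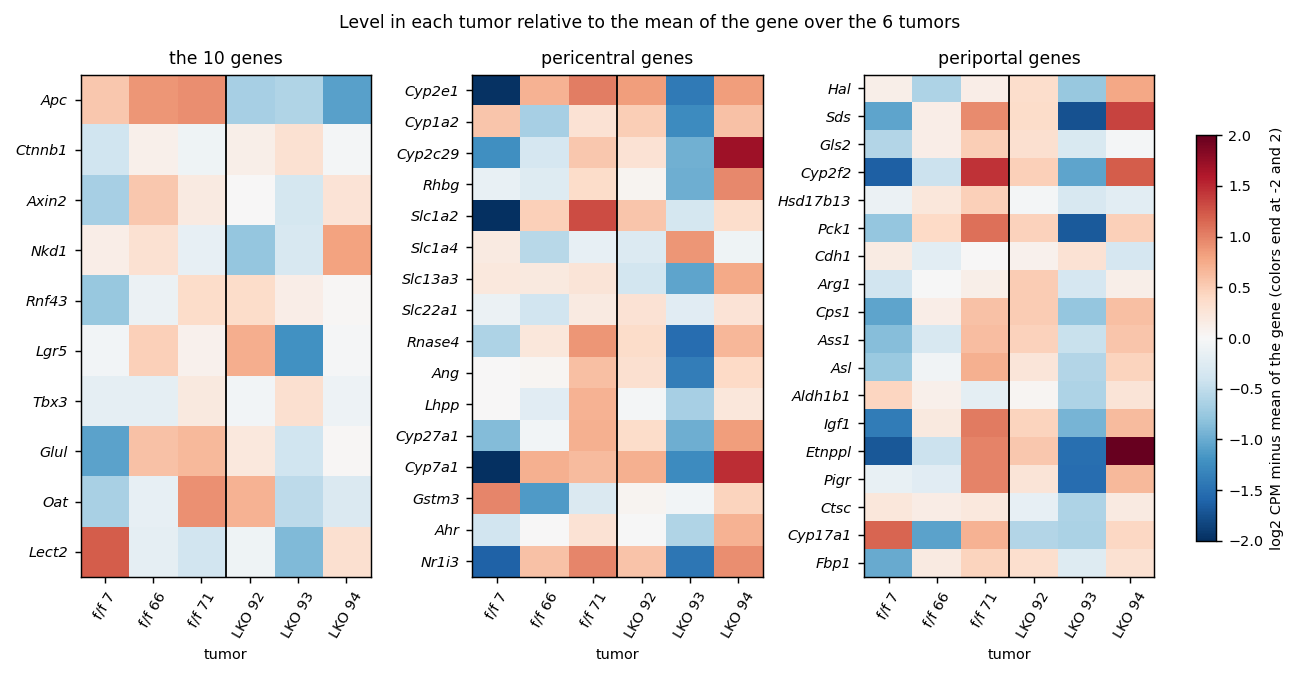
Log2 CPM of each gene in each tumor minus the mean of the gene over the 6 tumors (red above, blue below; colors end at -2 and 2), for the 10 genes, the 16 other pericentral genes and the 18 periportal genes; the line separates Prmt3f/f from Prmt3LKO tumors. Apc changes color at the line, while most zone genes are blue in Prmt3f/f 7 and Prmt3LKO 93 and red in Prmt3f/f 71 and Prmt3LKO 94.

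The genes around Apc and genes of like length were set beside it. Of 17 tested genes within 1000 kb, the log2 fold changes ran from -1.16 to 0.23 with a median of -0.053. The lowest, Epb41l4a, has a mean of 0.889 CPM in Prmt3f/f and 0.389 CPM in Prmt3LKO tumors and its groups overlapped, and the 2 genes with lower groups that did not overlap were Fam13b at -0.39 and Brd8 at -0.36. The 1 neighbour with higher groups that did not overlap was Etf1 at 0.20, and over all genes 6.59% were lower and 5.57% higher without overlap. Srp19, the nearest tested gene, was at 23.5, 18.2 and 14.0 CPM in Prmt3f/f and at 15.8, 22.2 and 16.3 CPM in Prmt3LKO tumors, a log2 fold change of -0.03. Epb41l4a, Fam13b, Brd8 and Etf1 were singled out after their values were seen. Among 116 tested genes with a length by FPKM at least that of Apc, the median was -0.053, with 9 lower and 8 higher without overlap. The medians of the neighbours and of the long genes lay near 0, and whether position or length bears on the level of Apc was not tested.

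**Figure D4:**
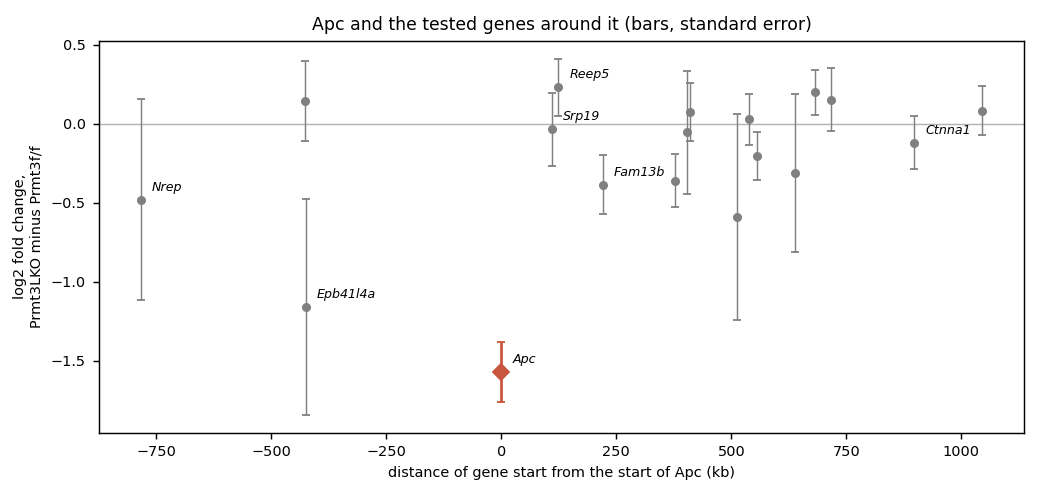
Log2 fold change, Prmt3LKO minus Prmt3f/f (y axis), of Apc and of the tested genes within 1000 kb of its bounds, against the distance of each gene start from that of Apc in kb (x axis); bars are standard errors. Apc lies at -1.57, and 16 of its 17 neighbours lie between -0.59 and 0.23.

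Apc2, the paralog of Apc, had only 3 to 17 reads per tumor, and its log2 fold change of -0.83 (standard error 0.65) was on overlapping groups. Axin1, which shares its role with Axin2, stood at 18.6, 28.6 and 27.7 CPM in Prmt3f/f and at 29.9, 32.9 and 27.4 CPM in Prmt3LKO tumors, with a log2 fold change of 0.27 (adjusted p = 0.897, edgeR's quasi-likelihood test). Of the 14 members of the destruction complex other than Apc and Axin2, 4 were below and 10 above 0, with a median of 0.03. Groups that did not overlap were found in 0 of the 14, beside 6.59% of all genes lower and 5.57% higher. Gsk3b, the kinase that marks beta-catenin, was at 32.5 CPM in Prmt3f/f and 34.0 CPM in Prmt3LKO tumors. Apc, known to be lower when it was picked, was the 1 gene of the whole list of 16 with groups apart.

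The wider pathway showed no gene past the limits in any list, where 0 of all 13892 genes tested passed them. Of 21 genes for Wnt ligands and their release, 8 were tested, 6 below and 2 above 0, with a median of -0.32, and the genes furthest from 0 among those with a mean of at least 1 CPM were Wnt9b at -0.51 (standard error 0.62) and Wnt4 at -0.39 (standard error 0.50). Rspo3, the R-spondin of the central vein, was at 2.21, 2.61 and 1.37 CPM in Prmt3f/f and at 2.17, 1.76 and 2.61 CPM in Prmt3LKO tumors, with a log2 fold change of 0.08 and a standard error of 0.35. Znrf3, the partner of Rnf43, was at 7.93, 6.43 and 8.96 CPM in Prmt3f/f and at 6.80, 5.004 and 4.77 CPM in Prmt3LKO tumors, a log2 fold change of -0.50 with an adjusted p of 0.769 in edgeR's quasi-likelihood test. Rnf43 and Znrf3 thus lay on opposite sides of 0, neither with groups apart.

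Receptors and Dishevelled gave 7 genes below and 7 above 0 with a median of -0.04, led by the receptors Fzd7 at -0.27 and Fzd6 at -0.26. Among 12 nuclear partners other than Ctnnb1, 6 were below and 6 above 0 with a median of 0.01. Bcl9, a coactivator, had a log2 fold change of -0.38 and the 1 pair of groups in this list that did not overlap. Groups that did not overlap, with Prmt3LKO lower, were found in 6.59% of all genes tested. Ctnnbip1, an inhibitor, was at -0.24. Of 5 tested genes for secreted antagonists and their Kremen receptors, 3 were below and 2 above 0 with a median of -0.32. Sfrp1 was at -0.998 and Dkk3 at -0.50. Kremen1, a receptor of the Dkk antagonists named after its values were seen, had groups that did not overlap, with Prmt3LKO higher (0.26). This pattern was found in 5.57% of all genes tested. The 5 partners of beta-catenin at cell junctions had a median of -0.08, with Ctnna1 at -0.12 and Ctnnd1 at -0.09.

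Other feedback and target genes of the pathway, beyond the 8, had 9 genes below and 5 above 0 of 14 tested, with a median of -0.16. At an unadjusted p under 0.05, 1 of these 14 was lower and 0 were higher, beside 4.37% and 2.2% of all genes. Sox9, which is also among the cholangiocyte markers, was at -0.73 (standard error 0.33, adjusted p = 0.774 in edgeR's quasi-likelihood test) and Mmp7 at 0.64 (standard error 0.92). The 16 pericentral genes other than the targets had 6 below and 10 above 0 with a median of 0.04, with Cyp2c29 at 0.90 (standard error 0.67) and Cyp7a1 at 0.51 (standard error 0.81). The 18 periportal genes had 8 below and 10 above 0 with a median of 0.03, with Etnppl at 0.999 and Cyp17a1 at -0.72.

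**Figure D5:**
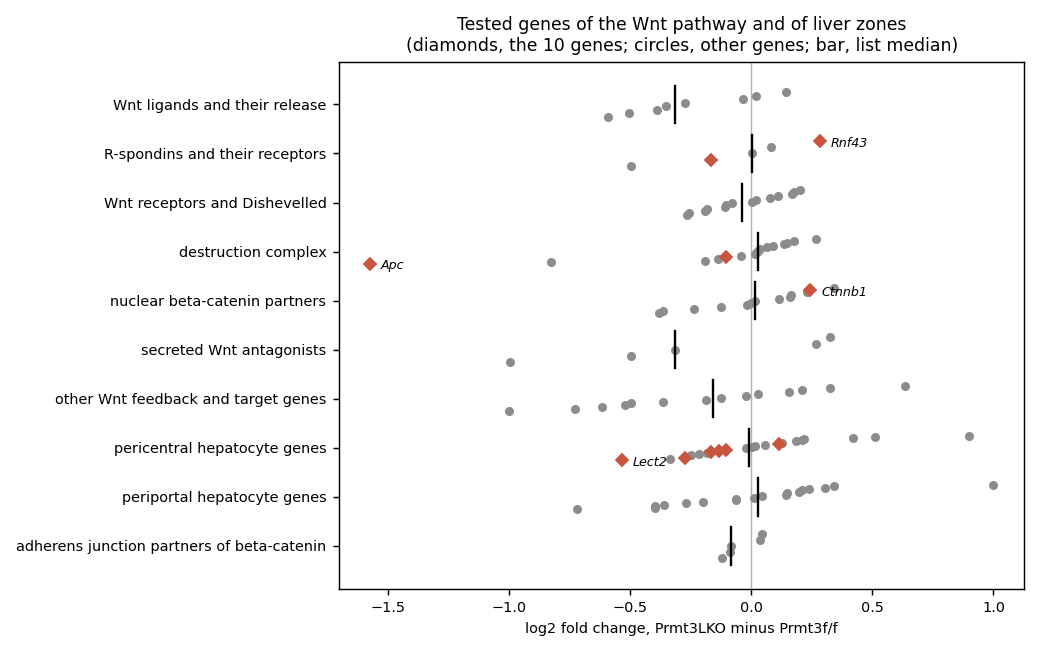
Log2 fold change, Prmt3LKO minus Prmt3f/f (x axis), of every tested gene of 10 lists of the Wnt pathway and of liver zones (y axis); diamonds are the 10 genes, circles other genes and bars the median of a list with both. Apc lies at -1.57, apart from every other gene of its list, and all list medians lie between -0.32 and 0.03.

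Some markers of other cell types differed between the groups. All 10 leukocyte markers were below 0 in Prmt3LKO tumors, with a median of -0.77, and 7 had groups that did not overlap, beside 6.59% of all genes in this direction; the list summed to 237 to 304 CPM in Prmt3f/f and 162 to 222 CPM in Prmt3LKO tumors, with none of the 10 at 0. All 8 markers of stellate cells and fibroblasts were below 0 as well, with a median of -0.31, but their sums of 359.6 to 896 CPM in Prmt3f/f and 388 to 636 CPM in Prmt3LKO tumors overlapped. Of 8 endothelial markers 5 were below and 3 above 0, with a median of -0.13. Of 5 tested cholangiocyte markers 4 were below and 1 above 0, with a median of -0.69, and 0 had groups that did not overlap. Markers of kidney summed to 2.95 to 4.20 CPM in Prmt3f/f and 8.64 to 12.4 CPM in Prmt3LKO tumors, with Slc22a6 at 0 in every Prmt3f/f tumor. Their part in the level of Apc or of its targets was not tested.

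The genes whose log2 CPM followed that of Apc most closely over the 6 tumors, among 9594 genes with a mean of at least 5 CPM, were Gbas (Pearson's r = 0.992), Topors (0.983) and Dennd4b (0.982). Gbas was at 12.3, 14.1 and 12.9 CPM in Prmt3f/f and at 7.82, 7.80 and 6.38 CPM in Prmt3LKO tumors, a gap between the groups like that of Apc. The correlation was taken over both groups together, so the search favors genes with the gap for which Apc was known. For Axin2, over 9595 genes, they were Zdhhc8 (0.973), Hnrnph1 (0.972) and Xab2 (0.972). For Glul they included Pisd-ps1 (0.994) and Herpud1 (0.991). Herpud1 was at 202, 508.7 and 555 CPM in Prmt3f/f and at 449, 287 and 417 CPM in Prmt3LKO tumors. Prmt3f/f replicate 7 and Prmt3LKO replicate 93 were lowest of their groups, as for Glul. A search for genes that follow Glul favors this order, so it is no separate observation. These correlations share libraries and depth over 6 tumors, are the highest of many, and are given with no p.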

How the data were processed

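RNA-seq of 3 Prmt3f/f and 3 Prmt3LKO tumors was deposited as 1 table, with reads counted per gene and the matching FPKM in each tumor. Per the labels, the submitters' processing notes name bcl2fastq 2.19, HISAT2 2.0.4, StringTie 1.3.0 and the build GRCm38; the counting settings and the annotation are not given in the sources used here. The count values that the authors deposited are whole numbers of reads, not normalized. In the deposited FPKM values, each count is divided by a gene length and by the total of its tumor. All columns were used (0 left out). Groups follow the genotype labels.

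Genes were filtered with filterByExpr (minimum count 10, minimum total 15), scaled by TMM and fitted in edgeR 4.0.16 (R 4.3.3) by quasi-likelihood, with Benjamini-Hochberg adjustment over 13892 genes, and called at an adjusted p under 0.05 and a change of at least 2-fold. Log2 CPM used a prior count of 2. Of symbols on more than 1 identifier (59), the one with the largest total was used. Scripts were tested on simulated data.

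The 10 genes and the lists were chosen with earlier results of these data known. Named genes are the 10, Prmt3, Apc2 and Axin1, per list the 2 other genes with the largest absolute log2 fold change and a mean of at least 1 CPM, the 3 genes most correlated with Apc, Axin2 and Glul at a mean of at least 5 CPM, and markers beside a result, of which some are not reported here; genes named outside this rule are Gsk3b, Srp19, Cyp2e1 and those said to be singled out. Alternatives were DESeq2 1.42.0, limma-voom (limma 3.58.1), edgeR's exact test, scaling without TMM, a filter of 1 count or of a mean of 1 CPM, log2 FPKM with a pseudocount of 1, and each tumor left out; CPM per kilobase of merged exons, the neighbours of Apc and leaving out 2 tumors together were added after seeing the data. Every pair of libraries differed beyond sampling noise.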

Additional observations from a re-analysis of the deposited data

How the results depend on the processing

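Apc stayed below 0 under every alternative run, from -1.70 to -1.44 with each tumor left out in turn. Its groups do not overlap, so leaving out 1 tumor could not turn its sign. Apc was at -0.72 on log2 of FPKM with a pseudocount of 1, a scale that understates changes of genes near 1 FPKM. The count of genes lower in Prmt3LKO tumors was 43 with DESeq2, 35 with the exact test of edgeR and 2 with no filter beyond 1 count, and the count of higher genes was 9 with DESeq2 and 5 with the exact test; all other settings gave 0. The median of R-spondins and their receptors without Rnf43 and Lgr5 was 0.0012 in the main fit, from 3 tested genes. It was -0.50 with no filter, which tests more genes, and ran from -0.35 to -0.062 with each tumor left out. The genes that pass the filter can differ between these fits. The median of the other feedback and target genes ran from -0.40 to -0.097 with each tumor left out, and was -0.40 without Prmt3LKO replicate 94. Of the targets, Axin2 and Lgr5 turned above 0 without Prmt3f/f replicate 66 or Prmt3LKO replicate 93, and Tbx3 turned below 0 without Prmt3LKO replicate 93. The causes were not tested. The scalings moved the median of all genes by no more than 0.022 in size from 0. No gene of the pathway lists other than the 10 genes was called under any alternative with a count test or limma-voom. With DESeq2, the setting with the most calls, only 43 lower and 9 higher were called of all 13892 genes tested. A lack of calls in these lists therefore says little about them. No paired analysis was possible because the groups share no replicate number in the labels. Axin2, Nkd1 and Lgr5 rest on 15 to 78 reads per tumor, with standard errors of 0.39 to 0.51, and the size of difference that could be detected was not tested.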
